A study of Drosophila melanogaster with 36 samples.

Results

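Heads of flies with a wild-type Atrophin transgene were compared with heads of Control flies after 14 days at 29 °C. The comparison rests on 6 of the 36 arrays of the study, taken by their titles: 3 arrays of the genotype called Atro at day 14 and 3 arrays of the genotype called Control at day 14. The Atro label names an expressed wild-type Atro transgene. The Control label names GMR-Gal4, a driver active in the developing and adult eye, and Gal80, a repressor of Gal4. The labels of Atro do not name its driver, and they do not say which form of Gal80 was used. Every fly of every group developed at 18 °C, was collected shortly after eclosion, and was either taken at once (day 0) or aged at 29 °C for 2 or 14 days. Atro and Control at days 0 and 2, with 3 arrays each, show what was already different before day 14. The lines A66QC and A75QN at day 14, again with 3 arrays each, carry a polyglutamine (polyQ) Atrophin and show where wild-type Atrophin stands beside them. Each RNA sample came from 20 heads. The labels give neither the sex of the flies nor whether replicates came from separate cultures, so the tests weigh differences against the spread of these RNA samples, which may be technical.

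Atrophin, encoded by Gug, is a nuclear co-repressor that is recruited by other transcription factors and lowers the transcription of their targets. In humans, a polyglutamine expansion of Atrophin-1 causes dentatorubral-pallidoluysian atrophy, a neurodegenerative disease. The fly eye holds photoreceptor neurons, pigment cells and lens-secreting cells, and a head also contains brain, fat body, muscle, cuticle and chemosensory organs. A change of message in whole heads is therefore a sum over all these tissues, and fewer cells of a type and less RNA per cell cannot be told apart.

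Values are deposited log2 expression levels, 1 for each of 18769 probe sets. A gene is represented by its brightest probe set with 1 gene symbol, which gave 11982 genes. Differences are Atro minus Control on the log2 scale with the SE of the fit, and "higher" or "lower" as a call means a Benjamini-Hochberg adjusted p under 0.05 in limma. A rise or fall is a difference of Atro from Control, and is not a change over time unless days are named. No background reading was used. A group mean below 6.40, which is the top of the array medians, is described as near background, and this limit was chosen after seeing the values. The 6 arrays had medians between 6.35 and 6.38 and SDs between 1.57 and 1.67, and arrays of a group correlated with r of at least 0.997 (Pearson, over probe sets, which are not independent of each other). Control replicate 2 was the array of the widest spread, with an SD 5.65% above the median of its group. The 3′ minus 5′ signal of the control probe sets, a measure of RNA integrity, did not overlap between the groups for any of 3 transcripts. It was 2.10 ± 0.077 in Atro against 1.81 ± 0.071 in Control for GAPDH, 2.05 ± 0.0024 against 1.84 ± 0.053 for actin, and 1.65 ± 0.056 against 1.53 ± 0.023 for eIF-4a (log2, SD, n = 3 each). This shift goes along with genotype in every comparison of Atro with Control at day 14, and its part in them was not tested.

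Head identity was checked with marker genes. The mean over 5 photoreceptor markers was 12.35 to 12.41 in Atro heads and 12.42 to 12.73 in Control heads. Over 4 neuron markers it was 8.51 to 8.65 in Atro and 8.72 to 8.89 in Control, and over 5 glia markers 10.04 to 10.14 in Atro and 10.19 to 10.44 in Control. In the values as deposited, these 3 sums lay lower in Atro without overlap. Those of fat body (12.45 to 12.72 against 11.92 to 12.36), muscle (8.82 to 8.91 against 8.58 to 8.79) and trachea (7.92 to 8.02 against 7.67 to 7.77) lay higher in Atro than in Control. Among the 6 fat body markers, however, only Lsp2 and fit were above 0. Yp1, Yp2, Yp3 and apolpp (-0.16) were below 0, and the median was -0.03. No photoreceptor or trachea marker was called, nSyb was the only neuron marker and wrapper the only glia marker called lower, and Lsp2, fit and the muscle gene Mlc1 were called higher. The remaining markers of these 6 sets, elav and repo among them, were not called. All 5 testis markers were near background in both groups, and the yolk protein genes Yp1, Yp2 and Yp3, made by female fat body, differed by -0.07, -0.0059 and -0.045 with no call. Whether the share of these tissues in a head had a part in the results below was not tested.

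Gug itself was not called. It read 9.00, 8.89 and 9.02 in Atro heads and 8.84, 9.07 and 9.01 in Control heads, and the groups overlapped. The difference was -0.0056 (SE 0.11, adjusted p = 0.995), or 0.03 after quantile normalization, and whether this probe set detects the transgene was not tested.

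At day 14, Atro heads differed from Control heads at 784 probe sets (4.18%), of which 349 were higher (1.86%) and 435 lower (2.32%). Among genes, 282 were higher (2.35%) and 345 lower (2.88%), together 5.23% of those tested. The median difference was 0.35 among the higher genes and -0.37 among the lower ones, so most calls were modest. Only 9 genes rose and 20 fell by at least 1 log2 unit. The balance of directions depended on scaling and on 1 array: 44.5% of the called probe sets were higher in the values as deposited, 55.1% (853 higher, 696 lower) after quantile normalization and 56.3% (931 higher, 724 lower) after cyclic loess. Without Control replicate 2 there were 304 higher and 219 lower probe sets, and without Atro replicate 2 there were 247 and 254. Among genes, 5.87% were higher and 4.72% lower after quantile normalization, and 2.08% higher and 1.49% lower without Control replicate 2, so counts of calls within lists under these settings stand beside those shares. The replicates of the groups did not overlap for 279 of the 282 higher and 343 of the 345 lower genes, where 23.5% of all genes had groups without overlap (10.5% higher in Atro and 13% lower).

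**Figure D1:**
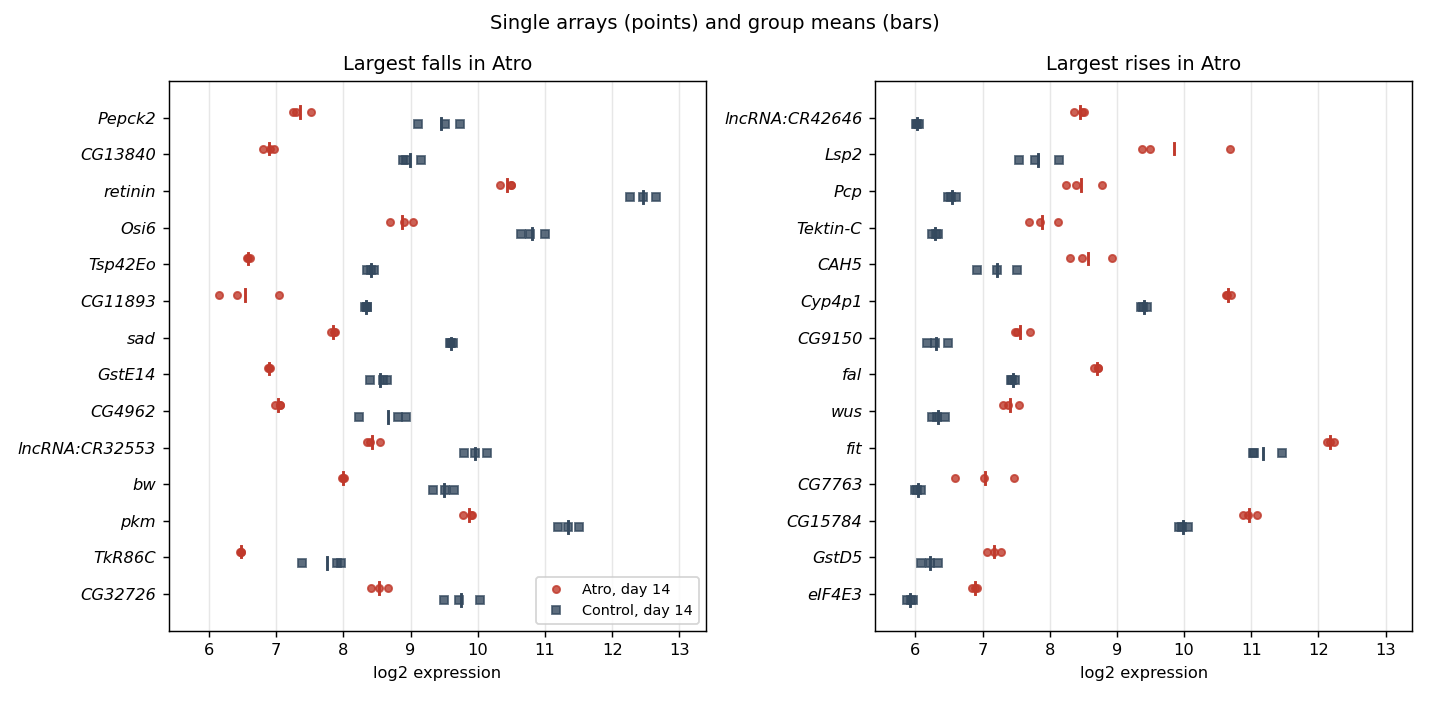
Log2 expression of the 14 genes of the largest fall (left) and the 14 of the largest rise (right) in Atro against Control at day 14. Each circle is an Atro array, each square a Control array and each bar a group mean. Only called genes whose groups do not overlap could be shown, and the widest spread is in the Atro arrays of Lsp2 and CG11893.

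The genes of the largest falls and rises were taken only from called genes whose arrays did not overlap between the groups. Their lack of overlap is thus a condition of the choice. The largest falls included genes of the eye surface and of pigment. Retinin, encoded by retinin, is a protein of the corneal lens. It read 10.49, 10.33 and 10.49 in Atro heads against 12.46, 12.65 and 12.27 in Control heads. All 3 Atro arrays lay below every Control array, with a difference of -2.03 (SE 0.092, adjusted p = 9.87e-17), or a 4.07-fold lower level. The gene bw, which encodes an ABC transporter subunit for the red pteridine eye pigment, read 8.01, 7.98 and 8.00 in Atro and 9.51, 9.65 and 9.33 in Control. Its Atro arrays were nearly equal and far below Control, at -1.50 (SE 0.096, adjusted p = 4.72e-13), and a dimmer second probe set of bw gave -0.75.

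Osi6, a member of the insect Osiris family of membrane proteins, stood at 8.90, 9.04 and 8.69 in Atro and at 10.64, 10.78 and 10.99 in Control. The fall was 1.93 on the log2 scale (difference -1.93, SE 0.14, adjusted p = 5.20e-12). Tsp42Eo, a tetraspanin of the 42E gene cluster, read 6.57, 6.60 and 6.57 in Atro, close to background, and 8.35, 8.45 and 8.41 in Control. Its difference was -1.82 (SE 0.11, adjusted p = 2.22e-13). Another gene of that cluster, Tsp42En, chosen after its values were seen, was lower too (adjusted p = 5.97e-09), with 7.70, 7.69 and 7.71 in Atro and 8.61, 8.84 and 8.66 in Control.

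The P450 gene sad encodes a hydroxylase of the late steps of ecdysone synthesis. It read 7.81, 7.88 and 7.86 in Atro heads and 9.60, 9.64 and 9.58 in Control heads, a difference of -1.76 (SE 0.071, adjusted p = 4.13e-18). GstE14, a glutathione S-transferase needed for ecdysteroid synthesis, read 6.90, 6.88 and 6.91 in Atro and 8.65, 8.59 and 8.39 in Control, a difference of -1.65 (SE 0.10, adjusted p = 2.27e-13). Both groups of arrays were tight for these genes. Of 18 measured ecdysone genes, however, only sad and ImpL1 (-0.22) were lower and MsrA was higher (0.35), and both calls were lost without Control replicate 1 or Atro replicate 3, that of ImpL1 also without Control replicate 2, and that of MsrA also without Control replicate 3 or Atro replicate 1. The synthesis genes spo, nvd, shd and dib were not called, with differences of 0.13, 0.02, -0.02 and 0.02.

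Metabolic and signalling genes were also among the falls. Pepck2, a phosphoenolpyruvate carboxykinase of gluconeogenesis, had the largest one, with 7.25, 7.51 and 7.29 in Atro and 9.11, 9.73 and 9.51 in Control. The difference of -2.10 (SE 0.15, adjusted p = 3.80e-12) was a 4.30-fold lower level. TkR86C, a tachykinin-type neuropeptide receptor, read 6.46, 6.47 and 6.48 in Atro and 7.39, 7.90 and 7.97 in Control, at -1.28 (SE 0.10). CG13840 had -2.09, CG11893 -1.81, CG4962 -1.63, lncRNA:CR32553 -1.54, pkm -1.48 and CG32726 -1.22, all called and without overlap by the rule of choice.

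Among the rises, lncRNA:CR42646 was the largest. This long noncoding RNA read 8.49, 8.50 and 8.37 in Atro heads and 6.06, 6.02 and 6.01 in Control heads, where it was near background. The difference was 2.42 (SE 0.058, adjusted p = 3.43e-24), a 5.36-fold higher level whose size is uncertain because of the Control level. Pcp, a pupal cuticle protein gene, read 8.39, 8.78 and 8.24 in Atro and 6.54, 6.49 and 6.60 in Control, at 1.93 (SE 0.080, adjusted p = 7.27e-18). Every Atro array lay above every Control array for both genes, as the rule of choice required.

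CAH5, a carbonic anhydrase, stood at 8.48, 8.31 and 8.93 in Atro and at 7.52, 7.22 and 6.92 in Control, at 1.35 (SE 0.14, adjusted p = 1.10e-08). Tektin-C, a protein of ciliary and flagellar microtubules, read 7.86, 8.12 and 7.69 in Atro and 6.34, 6.31 and 6.25 in Control, near background, at 1.59 (SE 0.099). It was the only 1 of 18 testis and sperm genes called (5.56%, close to the 5.23% over all genes). The P450 gene Cyp4p1 read 10.70, 10.65 and 10.63 in Atro and 9.35, 9.46 and 9.39 in Control, at 1.26 (SE 0.098), and fal read 8.66, 8.72 and 8.72 in Atro and 7.42, 7.49 and 7.45 in Control, at 1.25 (SE 0.080). The rises of CG9150 (1.25), wus (1.08), CG7763 (1.00), GstD5 (0.96) and eIF4E3 (0.96) were all measured against a Control level near background.

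Fat body messages rose in part. The storage protein gene Lsp2 read 9.38, 9.49 and 10.68 in Atro and 7.79, 8.13 and 7.55 in Control. Its difference of 2.03 (SE 0.50, adjusted p = 0.0117) carried a large error, and the call was lost without Control replicate 3 or without Atro replicate 3. The secreted peptide gene fit, expressed in female fat body, read 12.17, 12.24 and 12.13 in Atro and 11.05, 11.46 and 11.03 in Control, at 1.00 (SE 0.18, adjusted p = 0.000375). With Obp99b at 0.57 (SE 0.14), a call lost without Control replicate 1 or 3 or Atro replicate 3, these were the 3 of 18 fat body genes called higher. None was called lower, and the median of the list was -0.0011, or 0.04 after quantile normalization and 0.03 after cyclic loess. Among the yolk protein genes, Yp2 and Yp3 had been lower in Atro at day 0, at -0.75 (adjusted p = 0.000285) and -0.58 (adjusted p = 0.00189). The difference of Yp2 changed by 0.75 since then (SE 0.19, adjusted p = 0.0234), while for Yp3 the change of 0.53 was not called (adjusted p = 0.106). The share of female heads in a sample is not given by the labels, and its part in the values of these genes and of fit was not tested.

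The days before show which of these differences were there from eclosion. Over all genes, 5.52% differed at day 0 and 4.74% at day 2. Of the 282 genes higher at day 14, 89 were also higher at day 0, which is 31.6% of the day 14 list and 18.2% of the 489 genes higher at day 0 (4.08% of all genes). Of the 345 lower genes, 72 were lower at day 0 too, 20.9% of the day 14 list and 41.6% of the 173 genes lower at day 0 (1.44%). With day 2 the shared genes were 88 higher (31.2% of the day 14 list and 37.1% of the 237 higher at day 2, 1.98% of all genes) and 122 lower (35.4%, and 36.9% of the 331 lower at day 2, 2.76%). A call in the same direction on days 0, 2 and 14 was found for 56 higher and 55 lower genes. By calls alone 154 higher and 195 lower genes appeared at day 14 and on no earlier day, but such calls do not show that the difference changed. That change was tested directly: the difference of day 14 departed from that of day 0 at 396 probe sets (2.11%) and at 341 genes (2.85%), and from that of day 2 at 264 probe sets (1.41%) and 223 genes (1.86%). Over all genes 0.876% moved up and 1.97% down since day 0, and 1.21% up and 0.651% down since day 2. Over probe sets these shares were 0.671% and 1.44% since day 0, and 0.852% and 0.554% since day 2. The direction of these changes depended on scaling and on single arrays. Of the probe sets that changed since day 0, 31.8% had moved up in the values as deposited, against 52% after quantile normalization and 46.3% after cyclic loess. Of those that changed since day 2, 60.6% had moved up, against 40.8% without Atro replicate 2 of day 2. The number since day 0 was 253 probe sets without Atro replicate 2 of day 14, and that since day 2 was 171 without Control replicate 3 of day 2. Among the called genes of day 14, 65 of the higher and 99 of the lower had moved the same way since day 0, and 45 and 33 since both earlier days. A further 15 genes were called in opposite directions on days 0 and 14.

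Several of the strongest falls were absent at eclosion. On days 0 and 2 retinin differed by -0.02 and 0.07 (SE 0.092 each), and its change between day 0 and day 14 was -2.01 (SE 0.13, adjusted p = 2.16e-12). For Osi6 the differences were 0.21 and -0.08 on the earlier days, and the change since day 0 was -2.13 (SE 0.19, adjusted p = 5.76e-09). The gene pkm had 0.15 and -0.21 on those days and a change of -1.63 (SE 0.14, adjusted p = 9.97e-10). These 3 genes were thus separated from Control at day 14 and by no call on the earlier days.

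Other falls were already present after 2 days. For bw, a difference of -0.22 at day 0 (adjusted p = 0.277) was followed by -1.65 at day 2 (adjusted p = 1.42e-13) and -1.50 at day 14. For sad, 0.10 at day 0 was followed by -2.28 at day 2 (adjusted p = 3.79e-21) and -1.76 at day 14. CG13840 and Tsp42Eo lay between, at -0.54 and -0.46 on day 2. CG4962 was higher in Atro at day 0 (0.62, SE 0.15, adjusted p = 0.00817) and lower at day 14 (-1.63). Its change was -2.26 (SE 0.21, adjusted p = 7.34e-09).

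The late rises showed the same contrast in time. The difference of lncRNA:CR42646 was -0.03 at day 0 and -0.02 at day 2, and that of Pcp 0.04 and 0.01. Since day 0, lncRNA:CR42646 had changed by 2.45 (SE 0.082, adjusted p = 7.03e-20), and Pcp had changed by 1.89 (SE 0.11, adjusted p = 2.38e-13). CAH5 changed by 1.35, CG9150 by 1.40, fal by 1.06, fit by 0.98 and CG7763 by 0.97 since day 0, and each change was called. CG34134 crossed from one side to the other: its difference was -1.28 at day 0 (adjusted p = 6.00e-11), -0.09 at day 2 and 0.59 at day 14 (adjusted p = 9.85e-05), a change of 1.87. At day 14 it read 10.74, 10.80 and 10.72 in Atro and 10.23, 10.33 and 9.92 in Control.

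A second set differed on every day by similar amounts. Pepck2 was lower by -1.70 (SE 0.15) at day 0, -2.22 at day 2 and -2.10 at day 14, and the change since day 0 was not called (-0.40, SE 0.21, adjusted p = 0.562). TkR86C had -1.19, -1.35 and -1.28, lncRNA:CR32553 -1.17, -1.56 and -1.54, and CG33296 -0.98, -1.20 and -1.08. On the higher side, Tektin-C had 1.75, 1.84 and 1.59, Cyp4p1 1.39, 1.17 and 1.26, and CG15784 0.94, 0.60 and 0.99. The RING-finger gene gol had 1.21, 0.99 and 0.79, with 0.18 at day 14 in its second probe set. The differences of day 0 were measured in flies that had developed at 18 °C and had not been aged at 29 °C.

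**Figure D2:**
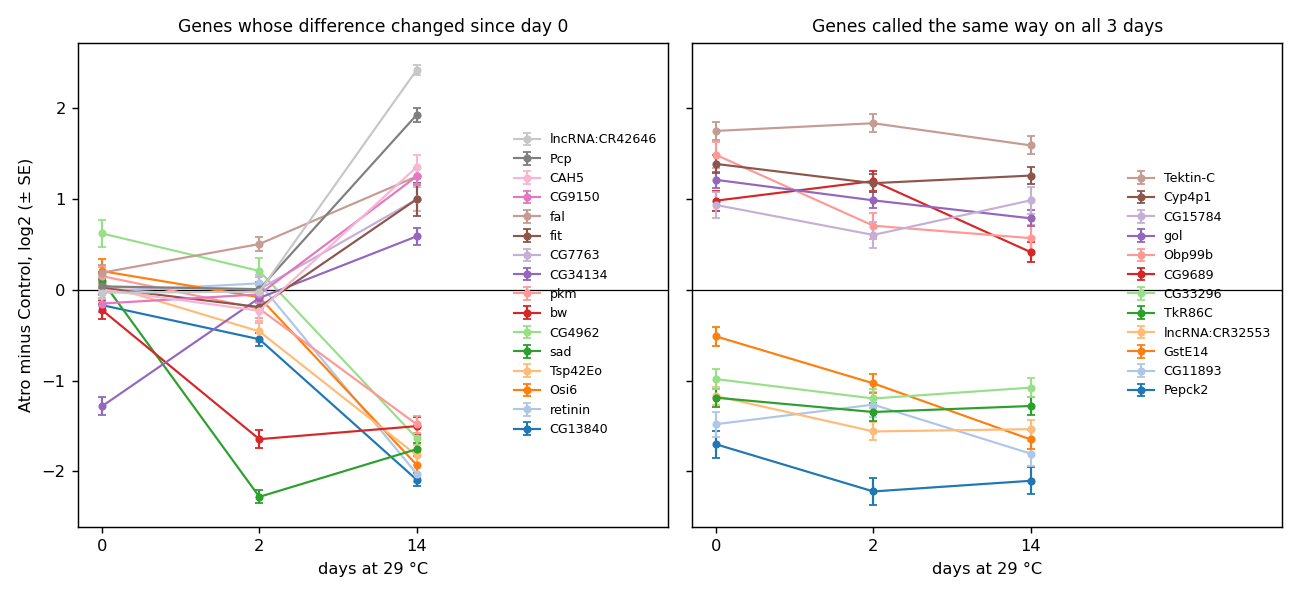
Difference of Atro from Control (log2, with SE) on days 0, 2 and 14, for the 16 genes with the largest called changes since day 0 (left) and the 12 with the largest differences called the same way on all 3 days (right). On the left retinin, Osi6, lncRNA:CR42646 and Pcp leave 0 between days 2 and 14 while bw and sad leave it between days 0 and 2, and on the right Pepck2, TkR86C, Tektin-C and Cyp4p1 stay apart from 0 throughout.

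The eye as a whole was described with lists. Of 18 measured phototransduction genes, 2 were lower, none was higher and 16 were not called, with a list median of -0.18 beside -0.0062 over all genes. All 18 differences were below 0 in the values as deposited, and 15 of 18 after quantile normalization (median -0.09, with 6 lower calls) or without Control replicate 2 (median -0.11, with 1 lower call). The clearest member was laza, a lipid phosphate phosphatase that acts on the phosphatidic acid made during the light response. It read 8.22, 8.31 and 8.31 in Atro and 9.15, 9.27 and 9.10 in Control, at -0.89 (SE 0.096, adjusted p = 5.67e-08), and its difference had changed by -0.74 (SE 0.14, adjusted p = 0.00111) since day 0. The rhabdomere protein gene rtp had -0.28 (SE 0.080, adjusted p = 0.0374), a call lost when any 1 array other than Control replicate 3 was left out.

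Channel, scaffold and arrestin genes of the cascade, picked out after their values were seen, were not called in the values as deposited. The light-gated channel genes trp and trpl had -0.04 and -0.08, their scaffold inaD -0.20, and the arrestin genes Arr1 and Arr2 -0.28 (adjusted p = 0.0683) and -0.14. Arr1 read 12.96, 12.90 and 12.92 in Atro and 13.14, 13.42 and 13.08 in Control, so its groups did not overlap although the test was not passed. The opsin genes and the cascade genes norpA and ninaC were not analysed here, so the core of the cascade was covered only in part. The other probe set of rtp gave -0.39. Of 13 genes of the rhabdomere and retinal structure, only ninaG was called, and it was higher. The median of that list was -0.03, and 0.02 after quantile normalization or cyclic loess, with 2 higher calls after quantile normalization.

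The visual chromophore is made from dietary carotenoids and recycled in photoreceptors and pigment cells. Of 7 genes of this pathway, 3 were lower and 1 higher, with a median of -0.25, and the same counts were found without Control replicate 2 (median -0.18). Pdh, a retinol dehydrogenase of pigment cells, read 11.80, 11.67 and 11.83 in Atro and 12.72, 12.85 and 12.51 in Control, at -0.93 (SE 0.092, adjusted p = 8.59e-09). The retinoid-binding protein gene pinta read 7.71, 7.57 and 7.59 in Atro and 8.41, 8.43 and 8.23 in Control, at -0.74 (SE 0.072, adjusted p = 6.22e-09). The carotenoid oxygenase gene ninaB had -0.52 (SE 0.088, adjusted p = 0.000152).

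Against these falls, ninaG rose. It encodes an oxidoreductase that acts late in chromophore synthesis, and it read 8.68, 8.64 and 8.78 in Atro and 8.32, 8.34 and 8.25 in Control, at 0.40 (SE 0.049, adjusted p = 6.30e-07). Its difference was 0.04 at day 0 and 0.08 at day 2. The dehydrogenase gene rdhB, chosen after its values were seen, was lower in Atro (difference -0.96, SE 0.090, adjusted p = 3.15e-09), with 10.04, 9.94 and 10.03 in Atro and 10.92, 11.16 and 10.82 in Control. The timing differed among them: pinta was called lower on all 3 days (-0.40, -0.36 and -0.74), ninaB from day 2 on (-0.02, -0.49 and -0.52), and Pdh and rdhB stood at -0.07 and -0.09 at day 0.

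Of 16 eye pigment genes, bw and st were lower and 14 were not called. The ommochrome precursor transporter gene st read 6.21, 6.34 and 6.28 in Atro, near background, and 6.66, 6.87 and 6.69 in Control, at -0.47 (SE 0.061, adjusted p = 2.53e-06). It had been higher in Atro at day 0, at 0.22 (adjusted p = 0.0284). The pigment synthesis genes se, Pu, cn and pr had -0.36, -0.13, -0.04 and -0.05 with no call. The list median was -0.10, with 13 of 16 differences below 0, and the same number was found after quantile normalization, with 3 lower calls.

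Of 26 neuron and synapse genes, 3 were lower and none higher, and 24 differences lay below 0 with a median of -0.21. The count was 1 lower and the median -0.13 without Control replicate 2, against 7 lower and -0.14 after quantile normalization. The 3′ minus 5′ signal given above separated the same 6 arrays, and its part in this count was not tested. The scaffold gene dlg1 read 9.88, 9.74 and 9.91 in Atro and 10.25, 10.59 and 10.40 in Control, at -0.57 (SE 0.085, adjusted p = 2.29e-05), with -0.56, -0.22 and -0.12 in its other probe sets. It was already lower at day 0, at -0.39. Nrx-1, a synaptic adhesion gene, had -0.39 (adjusted p = 0.0164), and the vesicle fusion gene nSyb had -0.36 (adjusted p = 0.0288). The call of Nrx-1 was lost without Control replicate 2 or 3 or Atro replicate 2, and that of nSyb without any 1 array other than Control replicate 1.

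Of 13 cholinergic genes, 3 were lower and none higher, with a median of -0.13, and 2 were lower without Control replicate 2. The receptor subunit gene nAChRbeta3 read 8.63, 8.73 and 8.64 in Atro and 9.20, 9.24 and 9.11 in Control, at -0.52 (SE 0.077, adjusted p = 2.31e-05). The acetylcholinesterase gene Ace had -0.31 (adjusted p = 0.0378), and nAChRalpha1 had -0.30 at a level near background in Atro. Hdc, which makes the photoreceptor transmitter histamine, was the one lower call among 14 genes of other transmitters, at -0.31 (SE 0.080, adjusted p = 0.0196). The calls of Ace and Hdc were lost without Control replicate 2 or 3 or Atro replicate 2, and that of Ace also without Atro replicate 3. After quantile normalization 2 genes of other transmitters were lower.

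Of 25 neuropeptide genes, 6 were lower and none higher, with a median of -0.24. There were 4 lower without Control replicate 2 (median -0.18), and 10 lower and 1 higher after quantile normalization (median -0.19). Corazonin, encoded by Crz, read 8.75, 8.76 and 8.79 in Atro and 9.34, 9.44 and 9.26 in Control, at -0.58 (SE 0.072, adjusted p = 9.40e-07). The difference of Crz had changed by -0.45 (SE 0.10, adjusted p = 0.0108) since day 0. Mip, the gene of the myoinhibitory peptides, had -0.51 (SE 0.063, adjusted p = 9.52e-07), Nplp4 -0.60 (SE 0.082, adjusted p = 4.74e-06) and the diuretic hormone gene Dh44 -0.37 (SE 0.087, adjusted p = 0.00692). The call of Dh44 was lost without Control replicate 3, that of ITP without any 1 array other than Control replicate 1, and that of Ms without any 1 array other than Control replicate 3. Pdf, the peptide of clock neurons, was not called at 0.21.

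Of 17 glia genes, wrapper alone was called in the values as deposited (5.88%, close to the 5.23% over all genes). The list median was -0.09. After quantile normalization 3 were higher and 2 lower (median -0.04), and after cyclic loess 3 were higher and 1 lower. The gene wrapper encodes a surface protein of axon-wrapping glia. It read 8.34, 8.26 and 8.15 in Atro and 8.64, 8.79 and 8.58 in Control, at -0.42 (SE 0.084, adjusted p = 0.00123). At day 0 it had been higher in Atro, at 0.35 (adjusted p = 0.00977).

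At day 14, immune effectors were lower where they were called. Of 24 antimicrobial peptide and effector genes, 5 were lower and none higher, with a median of -0.19 and 4 lower without Control replicate 2. At day 0 the same list had 5 higher and no lower calls and a median of 0.25, where 4.08% of all genes were higher. Since then the difference moved down in 6 of its genes and up in none. The drosomycin-like gene Drsl4 read 10.43, 10.47 and 10.61 in Atro and 11.50, 11.51 and 11.12 in Control, at -0.87 (SE 0.15, adjusted p = 0.000139). Drsl5, of the same family, had -0.52 (SE 0.092, adjusted p = 0.000311), and the bomanin gene BomT3 read 10.78, 10.30 and 10.81 in Atro and 11.30, 11.80 and 11.32 in Control, at -0.84 (SE 0.15, adjusted p = 0.000233). The classical inducible peptides were not called: in genes picked out after their values were seen, Drs had -1.14 (adjusted p = 0.60), DptB -0.51 (adjusted p = 0.80) and Mtk -0.20 (adjusted p = 0.96).

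In the Toll and Imd pathways that induce such peptides, 2 of 29 genes were higher and 1 lower. The protease gene psh, which senses microbial proteases upstream of Toll, read 7.29, 7.37 and 7.43 in Atro and 8.30, 8.35 and 8.32 in Control, at -0.96 (SE 0.091, adjusted p = 3.46e-09). It was lower on every day, at -1.09 at day 0 and -1.10 at day 2. The adaptor gene imd had 0.29 (adjusted p = 0.00505) and the NF-kappaB gene Rel 0.44 (adjusted p = 0.0344), where the call of imd was lost without Control replicate 3 or Atro replicate 3 and that of Rel without any 1 of the 6 arrays. After quantile normalization 4 were higher and 1 lower. The antiviral genes Vago and Sting, chosen after their values were seen, had 0.92 (SE 0.21) and 0.69 (SE 0.15), and both calls were lost without Atro replicate 2. Of 14 blood cell genes, 12 were not called, and the list median was 0.02. The phagocytosis receptor gene NimC1 was lower at -0.77 (SE 0.095, adjusted p = 7.91e-07). It had been lower at day 0 (-0.52, adjusted p = 0.000578) and day 2 (-0.66, adjusted p = 2.33e-05). Its relative eater was higher at 0.32 (SE 0.072, adjusted p = 0.00457).

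No stress chaperone was called higher in the values as deposited. Of 15 heat-shock and chaperone genes, 2 were lower and none higher. DnaJ-1, an Hsp40 co-chaperone, read 10.11, 10.08 and 10.10 in Atro and 10.66, 10.88 and 10.69 in Control, at -0.64 (SE 0.072, adjusted p = 1.06e-07). At day 0 it had been higher, at 0.31, so that its difference changed by -0.96 (SE 0.10, adjusted p = 1.28e-07). Hsc70-2 had -0.86 at a level near background in Atro. After quantile normalization 2 members of the list were higher and 2 lower. Among 12 genes of the unfolded protein response only the chaperone gene Cnx99A was called, at 0.30 (SE 0.081, adjusted p = 0.0246), a call lost without any 1 array other than Control replicate 2, and quantile normalization gave 3 higher and 1 lower. Of 24 autophagy genes, only Atg101 was called, lower at -0.32, and of 14 apoptosis and JNK genes only the apoptosome gene Dark, at -0.29 (adjusted p = 0.0144). Both of these calls were lost without Control replicate 2 or 3 or Atro replicate 2 or 3, and that of Atg101 also without Atro replicate 1. After quantile normalization the autophagy list held 1 higher and 2 lower calls and the apoptosis list 1 of each. In the values as deposited, 4.17% of the autophagy list, 7.14% of the apoptosis list and 8.33% of the unfolded protein list were called. These shares of short lists stand beside 5.23% over all genes.

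Detoxifying enzymes were called in both directions. Of 83 cytochrome P450 genes, 10 were higher and 7 lower (20.5% called, beside 5.23% of all genes), with a median of -0.0099 that became 0.0079 after quantile normalization. Without Control replicate 2 the counts were 8 and 3, and after quantile normalization 15 and 7. At day 0 the list already held 9 higher and 7 lower calls, where 4.08% and 1.44% of all genes were called. Since then the difference moved up in 7 of its genes and down in none, beside 0.876% and 1.97% of all genes. Beside Cyp4p1, Cyp9c1 read 8.10, 8.07 and 8.26 in Atro and 7.28, 7.39 and 7.29 in Control, at 0.82 (SE 0.064, adjusted p = 4.04e-11), and Cyp6a20 had 0.65 (SE 0.092, adjusted p = 9.74e-06). On the lower side, Cyp6a14 had -0.37 (SE 0.054, adjusted p = 1.20e-05), beside -0.36 at day 0 and -0.41 at day 2. The lowest difference in this list was -0.46. The P450 gene sad (-1.76) was not in it and is counted among the ecdysone genes above.

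Of 34 glutathione S-transferase genes, 7 were higher and 2 lower (26.5% called), or 7 and 1 without Control replicate 2 and 11 and 3 after quantile normalization. At day 0 the list already held 9 higher and 1 lower calls, where 4.08% and 1.44% of all genes were called. Since then the difference moved up in 1 of its genes and down in 2. GstD5 read 7.07, 7.28 and 7.18 in Atro and 6.22, 6.09 and 6.34 in Control, and its difference changed by 0.85 (SE 0.12, adjusted p = 1.38e-05) since day 0. GstD2 had 0.62, GstE7 0.49 and GstE11 0.41. GstE14 and GstE12 were the 2 lower members, and GstE14 was also lower at day 0 (-0.51) and day 2 (-1.03). Of 35 UDP-glycosyltransferase genes, 3 were higher and 1 lower (5 and 1 after quantile normalization), with Ugt36E1 at 0.59 (SE 0.069) and Ugt36A1 at -0.49 (SE 0.048).

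Of 47 odorant-binding protein genes, 3 were higher and 6 lower (19.1% called), or 4 and 2 without Control replicate 2 and 6 and 7 after quantile normalization. Obp99d read 7.31, 7.28 and 7.31 in Atro and 8.51, 8.53 and 8.40 in Control, at -1.18 (SE 0.083, adjusted p = 4.19e-12). Obp8a read 8.30, 8.19 and 8.34 in Atro and 7.39, 7.53 and 7.27 in Control, at 0.88 (SE 0.065, adjusted p = 1.33e-11), and it was already higher at day 0, at 0.72. Of 165 chemoreceptor genes, 2.42% were called, a smaller share than the 5.23% over all genes. Ir75a was higher at 0.54, and Ir25a, Ir76b and Or65b were lower at -0.19, -0.17 and -0.18. These 3 lower calls were each lost without Control replicate 2 or 3 or Atro replicate 1, among other arrays.

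Of 109 cuticle protein genes, 3 were higher and 2 lower, and this share of 4.59% lay close to the 5.23% over all genes. After quantile normalization 5 were higher and 3 lower. Within this list retinin led the lower ones, and Cpr49Ae led the higher ones at 0.56 (SE 0.090, adjusted p = 6.54e-05). The pupal cuticle protein gene Pcp, whose rise was larger, was not in the list or in its share. Of 22 muscle genes, 2 were higher, namely Mlc1 at 0.40 (adjusted p = 0.0107) and TpnC4 at 0.50, the last at levels near background in both groups. The call of Mlc1 was lost without Control replicate 3 or Atro replicate 1. After quantile normalization or cyclic loess the muscle list held 4 higher and 1 lower calls. Of 25 lipid genes, 3 were higher and 2 lower after quantile normalization or cyclic loess. In the values as deposited 1 was called (4%, close to the 5.23% over all genes). This gene, whd, encodes a carnitine palmitoyltransferase for mitochondrial fatty acid import and read 10.27, 10.20 and 10.23 in Atro and 10.83, 10.96 and 10.75 in Control, at -0.61 (SE 0.098, adjusted p = 6.22e-05). In the insulin list of 12 genes, foxo had -0.30 (adjusted p = 0.00679), lost without Control replicate 3 or Atro replicate 3, and quantile normalization added 1 higher call.

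Several large lists held no call in limma at day 14. They were the 41 cytosolic ribosomal protein genes (median -0.10), 69 mitochondrial ribosomal protein genes (0.01), 74 oxidative phosphorylation genes (-0.06), 30 proteasome genes (-0.03) and 31 genes of the vacuolar proton pump (-0.0064). At an unadjusted p under 0.05 these lists held 0 higher and 3 lower, 2 and 0, 2 and 3, 1 and 0, and 0 and 1 genes in the same order. After quantile normalization the medians were -0.01, 0.05, 0.0038, 0.02 and 0.01, so the sign turned for oxidative phosphorylation, the proteasome and the proton pump. With that scaling limma called 3 mitochondrial ribosomal protein genes higher, 1 oxidative phosphorylation gene higher and 2 lower, and 2 proton pump genes higher and 1 lower. The proteasome list had 22 higher calls at day 0 and a median of 0.37 then. Limma also called none of the 15 Atrophin and co-repressor partner genes, 17 Fat and Hippo genes and 13 EGFR and Notch genes, of which 2, 1 and 1 had an unadjusted p under 0.05. After quantile normalization 1 gene of the EGFR and Notch list was called higher.

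Of 12 clock genes, tim was higher and cwo lower. The gene tim read 9.90, 9.85 and 9.85 in Atro and 9.39, 9.55 and 9.40 in Control, at 0.42 (SE 0.083, adjusted p = 0.00131), whereas its dimmer second probe set gave -0.06. At day 0 its difference had been 1.53, and at day 2 it was -0.10. Its partner gene per had 0.06 (adjusted p = 0.767) and vri -0.06 (adjusted p = 0.891). The repressor gene cwo had -0.44 (SE 0.098, adjusted p = 0.00533), a call lost without Control replicate 2. After quantile normalization 2 clock genes were higher and 2 lower. Of 8 activity-regulated genes, the capsid-like gene Arc1 was higher at 0.60 (SE 0.15, adjusted p = 0.0135), Arc2 higher at 0.29 and cbt lower at -0.28. All 3 calls were lost without Control replicate 3 or Atro replicate 1 or 2, those of Arc2 and cbt also without a further array or more. The dimmer second probe set of Arc1 gave -0.04 (SE 0.25).

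**Figure D3:**
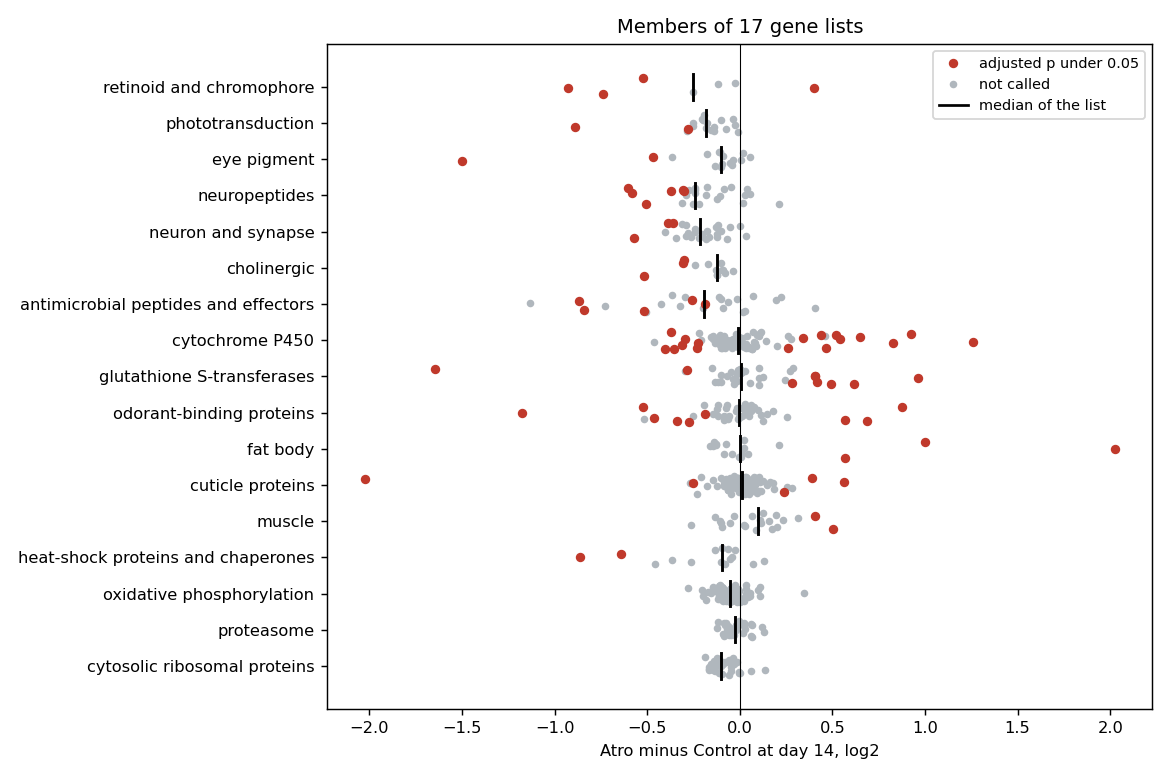
Difference of Atro from Control at day 14 (log2) for each measured member of 17 gene lists. Each point is a gene, called genes are red, and the bar is the median of the list. Called members of the retinoid, neuropeptide, neuron and antimicrobial lists lie mostly below 0, those of the P450 and glutathione S-transferase lists lie on both sides, and the 3 lowest lists hold none.

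The polyQ lines of day 14 place these differences on a scale. A66QC and A75QN were compared with the same Control arrays, so their own differences from Control are given side by side only, and the tests below set Atro directly against each line. Atro differed from A66QC at 895 genes (7.47%) and from A75QN at 1372 genes (11.5%). Most of these genes were higher in Atro in the values as deposited, 808 against A66QC (6.74%, with 0.726% lower) and 1051 against A75QN (8.77%, with 2.68% lower). Among probe sets 1100 (5.86%) differed from A66QC and 1744 (9.29%) from A75QN. The split was 969 higher (5.16%) and 131 lower (0.698%) against A66QC, which became 676 and 545 after quantile normalization, and 1225 (6.53%) and 519 (2.77%) against A75QN, which became 1187 and 1204. The count against A66QC was 564 probe sets without its replicate 2, 601 without Atro replicate 1 and 664 without Atro replicate 3, and that against A75QN 1038 without its replicate 2 and 1123 without Atro replicate 1. The poly-A spike-in controls averaged 12.44 ± 0.10 on the A75QN arrays and 10.00 ± 0.055 on the Atro arrays of day 14 (log2, SD, n = 3 each), and within that comparison spike-in signal and genotype cannot be told apart.

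A group of genes, eye and pigment genes among them, was lower in Atro than in Control and lower again in both polyQ lines. Osi6 stood at -1.93 in Atro, -4.62 in A66QC and -4.45 in A75QN against Control, and Atro lay above A66QC by 2.69 (SE 0.14, adjusted p = 2.29e-15). It lay above A75QN by 2.52 (SE 0.14). For pkm the differences from Control were -1.48, -3.83 and -3.64, and for bw -1.50, -3.34 and -3.01 in the same order of lines. Pdh had -0.93, -2.45 and -2.38, rdhB -0.96, -2.39 and -2.43, and sad -1.76, -3.11 and -3.10. Atro was called higher than each polyQ line for all 6 of these genes. In CG40485 and dmGlut, a glutamate transporter gene, the step in Atro was small (-0.50 and -0.38, the first a call lost without Control replicate 2 or Atro replicate 1 or 3) beside -3.03 and -2.25 in A66QC and -2.52 and -1.91 in A75QN.

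Retinin in Atro lay closer to A66QC than to A75QN. It stood at -2.03 in Atro, -2.46 in A66QC and -3.75 in A75QN against Control. Atro was above A66QC by 0.43 (SE 0.092, adjusted p = 0.00275) and above A75QN by 1.73 (SE 0.092, adjusted p = 7.84e-15). Other genes stood at nearly the same level in all 3 transgenic lines. Tsp42Eo had -1.82, -1.93 and -1.91, and Atro differed from the polyQ lines by 0.11 (SE 0.11, adjusted p = 0.592) and 0.09 (SE 0.11, adjusted p = 0.64). TkR86C had -1.28, -1.23 and -1.22, with -0.05 (SE 0.10, adjusted p = 0.806) and -0.06 (SE 0.10, adjusted p = 0.722). These tests do not show that the lines are equal.

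Some rises were larger in Atro than in either polyQ line. Pcp had 1.93 in Atro, 0.77 in A66QC and 0.67 in A75QN, and Atro exceeded A66QC by 1.16 (adjusted p = 2.68e-12) and A75QN by 1.26 (adjusted p = 3.20e-13). For fal the values were 1.25, -0.03 and 0.18, and for CG9150 1.25, 0.35 and 0.13, with Atro called above each line for both genes. The chromophore gene ninaG had 0.40 in Atro, -0.20 in A66QC and -0.01 in A75QN, and Atro was above them by 0.61 (adjusted p = 1.20e-10) and 0.41 (adjusted p = 3.28e-07). The chaperone gene DnaJ-1 lay lower in Atro than in either line, at -0.64 beside -0.07 and -0.25, with differences of -0.58 (SE 0.072, adjusted p = 8.94e-07) and -0.39 (SE 0.072, adjusted p = 0.000291).

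In a further set, Atro stood much further from 1 polyQ line than from the other. Tektin-C had 1.59 in Atro, -0.16 in A66QC and 2.03 in A75QN against Control, and Atro was above A66QC by 1.75 (SE 0.099, adjusted p = 2.61e-14). CG33296 had -1.08, -1.19 and 0.08, and CG11893 -1.81, -1.17 and -0.26, with Atro below A75QN by -1.16 (SE 0.11) and -1.54 (SE 0.14). Lsp2 had 2.03, 1.74 and -0.55, with Atro above A75QN by 2.57 (SE 0.50, adjusted p = 0.000579). For lncRNA:CR42646 the differences from Control were 2.42, 2.13 and 3.43, and Atro lay below A75QN by -1.01 (SE 0.058, adjusted p = 3.96e-14). Tektin-C, CG33296 and CG11893 differed between Atro and Control at day 0 as well, at 1.75, -0.98 and -1.48.

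**Figure D4:**
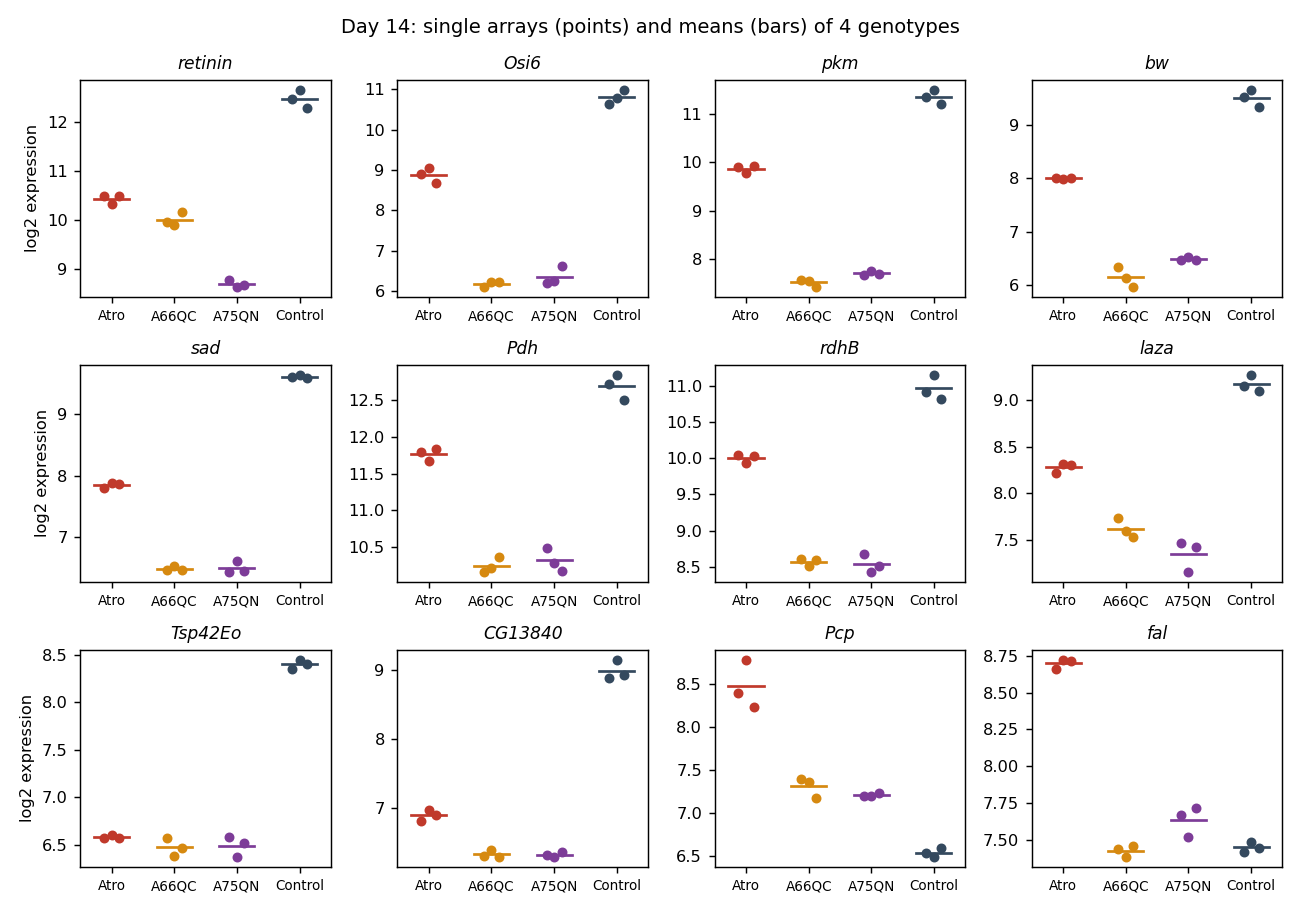
Log2 expression at day 14 of 12 genes in the lines Atro, A66QC, A75QN and Control. Points are arrays and bars are group means. Osi6, pkm, bw, sad, Pdh, rdhB and laza are lowest in the polyQ lines with Atro between them and Control, Tsp42Eo is low in all 3 transgenic lines, and Pcp and fal are highest in Atro.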

How the data were processed

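Expression in fly heads was read with 36 Affymetrix arrays of a single colour, 3 in each of 12 groups. The values are log2 expression levels as deposited by the authors. Per the submitters' processing notes R 2.11.0 was used, and how background was corrected and values were normalized is not given in the sources used. No scanner intensities entered, and no depth applies to arrays, whose number limits the precision.

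Samples were grouped by their titles. After removal of 183 control probe sets, 18769 of 18952 probe sets were fitted with limma 3.58.1 in R 4.3.3: a model of 12 group means over all 36 arrays, whose shared spread has 24 residual and 6.49 prior degrees of freedom, moderated statistics, and Benjamini-Hochberg adjustment over all probe sets with a threshold of 0.05. Contrasts were Atro minus Control on each day, the change of that difference between days, and Atro minus each polyQ line at day 14. Annotation gave 13647 probe sets 1 gene symbol, 402 several and 4720 none, and the brightest probe set stood for each of 11982 genes. In simulated data of the same layout, noise was drawn independently for each probe set and array, at the residual SD of the probe set. There 98% of changes of 0.5 log2 units and 58% of those of 0.25 were recovered, and 7 of 185 calls were unchanged probe sets. The simulation held no shift shared across the probe sets of an array, so these shares may not hold for the real arrays.

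The comparison, the gene lists and the tests were chosen with earlier results of these data known. Named genes are those of the largest rise and fall without overlap of replicates, at most 6 genes of a list, taken by adjusted p, the largest changes since day 0, the largest differences present on all 3 days, the largest differences from each polyQ line, and Gug, per, tim and vri. Tsp42En, rdhB, Vago, Sting, trp, trpl, Arr2, the yolk protein genes, and members outside these ranks (nvd, shd, dib, Pu, cn, pr, Drs, DptB, Mtk and GstE12) were chosen after their values were seen. Alternatives were other normalizations, array weights, a filter on dim probe sets, a trended robust prior, the compared groups alone, a replicate block, and leaving out arrays. Whether equal replicate numbers pair arrays was checked by the correlation of deviations from group means. Between Atro and Control it was -0.179, -0.236 and -0.0249 at day 14 and -0.0717, -0.0102 and 0.28 at day 0. Between Atro and A75QN at day 14 it was -0.018, -0.122 and -0.0585. Between Atro and A66QC it was 0.0246, 0.125 and 0.117, and Atro replicates 2 and 3 correlated best with the A66QC array of their own number. Whether those arrays are paired is not settled. Between Atro and Control at day 2 the correlation was 0.388, 0.678 and 0.273. There, however, Atro replicate 1 correlated best with Control replicate 3, and Atro replicate 3 with Control replicate 1. Whether equal numbers pair arrays on that day is thus not settled, and the labels do not say. No pair of arrays held identical values. Neither ft nor w is analysed here. Figures were drawn in Python 3.11.15 with matplotlib 3.10.9.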

Additional observations from a re-analysis of the deposited data

Results flagged for a closer look

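For 29 genes with the largest differences at day 14 or the largest changes since day 0, the difference of Atro from Control was compared between days 0 and 14 with an interaction contrast in limma, adjusted over all probe sets. In 21 of them it changed. The changes on the log2 scale were -2.26 for CG4962, -2.13 for Osi6, -2.01 for retinin, -1.92 for CG13840, -1.89 for Tsp42Eo, -1.86 for sad, -1.63 for pkm, -1.28 for bw, -1.14 for GstE14 and -0.68 for CG32726. In the other direction they were 2.45 for lncRNA:CR42646, 1.89 for Pcp, 1.87 for CG34134, 1.40 for CG9150, 1.35 for CAH5, 1.06 for fal, 0.98 for fit, 0.97 for CG7763, 0.85 for GstD5, 0.75 for eIF4E3 and 0.46 for wus. The genes were chosen by their size at day 14 or by this change itself, so the count of 21 describes them and is not evidence of its own. GstE14, CG32726 and wus were called in the same direction at day 0, whereas CG4962 and CG34134 were called there in the opposite one.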

How the results depend on the processing

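Of 121 named genes called at day 14, 80 kept the call under all 14 alternatives, 41 lost it under at least 1, most often without Control replicate 2 (29 genes), and none turned. The 784 probe sets became 1549 after quantile normalization, 1655 after cyclic loess, 1329 with array weights, and 501 (without Atro replicate 2) to 794 (without Control replicate 1) when 1 array was left out. For the change since day 0, the 396 became 817, 877 and 847 under the same 3 settings, 257 with the compared groups alone and 253 to 534 with 1 array left out. Without the arrays of outlying spread that split was 202 positive and 168 negative, against 126 and 270 in the main fit. For the change since day 2, the 264 became 868, 901 and 892, and 171 to 259 with 1 array left out. Against A66QC, the 1100 became 3674 with array weights, 3085 with the compared groups alone, 2430 without arrays of outlying spread, and 564 to 885 with 1 array left out. Against A75QN, the 1744 became 3169 with array weights, 3112 without arrays of outlying spread, and 1038 to 1785 with 1 array left out. The cause of these shifts was not tested. With a replicate block the counts were 742, 372, 235, 1098 and 1723, so it changed none of them by over 1.5 times. At day 2, where pairing by number is not settled, Atro differed from Control at 681 probe sets without and 635 with the block. This alternative was added after seeing the data. The block ended no day 2 call given above. At day 14, where arrays of equal number in Atro and Control did not correlate positively, the block ended the calls of nSyb, Rel and cbt among the genes given. Over the 293 named genes and 18 more chosen after their values were seen, the day 14 values gave the same call in 3915 comparisons with an alternative, gained it in 222 and lost it in 179. About 50.5% of probe sets had a mean under the background limit.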

Other observations

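Of the 183 control probe sets, 1 differed between Atro and Control at day 14 by at least 0.5 without overlap of the arrays. It read 7.82, 7.67 and 7.82 in Atro, 6.83, 6.90 and 6.85 in A66QC, 6.87, 6.99 and 6.75 in A75QN, and 8.34, 8.54 and 8.60 in Control. At day 0 it read 8.63, 8.84 and 8.56 in Atro and 8.56, 8.57 and 8.36 in Control, and at day 2 8.54, 8.46 and 8.58 in Atro and 8.92, 8.60 and 8.79 in Control.

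Other genes that differed at day 14, chosen after their values were seen, were the juvenile hormone-binding gene Jhbp2, with 10.37, 10.38 and 10.42 in Atro and 11.48, 11.61 and 11.36 in Control (difference -1.09), and mle, a helicase of the dosage compensation complex, with 9.27, 9.19 and 9.32 in Atro and 10.18, 10.41 and 10.41 in Control (difference -1.07). SCAP, which escorts the lipid regulator SREBP, read 9.43, 9.35 and 9.44 in Atro and 8.63, 8.83 and 8.70 in Control (0.68, beside 0.62 at day 0 and 0.77 at day 2). P5cr-2, an enzyme of proline synthesis, read 9.40 on each Atro array and 8.71, 8.82 and 8.58 in Control (0.70, beside 0.88 at day 0 and 0.74 at day 2). The leucine-rich repeat gene kek5 had 0.89 in its brightest probe set, near background in Control, and -0.07 in another.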
